A study of Mus musculus with 2 samples.

Results

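The T cell receptor signalling and T-fate genes considered here were Tcf7, Gata3, Cd3d, Cd3e, Cd3g, Cd247, Lat, Lck, Zap70 and Cd5. They were chosen by name, and every non-control probe carrying one of these names or an accession of one of these genes was taken, which gave 13 of 55680 probes and 10 of 34786 genes or transcripts. Of the 10 genes, 8 were measured on both arrays, meaning that the probe with the highest mean signal was called well above background by the scanner software on each, 1 was above background on 1 array only and 1 on neither. Tcf7, Cd247, Lat and Cd5 were higher after decitabine by 2-fold or more, Gata3 was lower by 2-fold or more, Cd3e, Lck and Zap70 lay within 2-fold, Cd3d was found on the control array only and Cd3g on neither array. There was 1 array per group, so none of these differences could be set against replicate error and no test was possible.

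The T cell receptor has no signalling activity of its own. It relies on the CD3 chains and the zeta chain, whose tails carry immunoreceptor tyrosine-based activation motifs (ITAMs). The kinase LCK phosphorylates these motifs, ZAP-70 docks on them and phosphorylates the adaptor LAT, and CD5 dampens the signal. TCF-1, the product of Tcf7, and GATA3 act before the receptor is made, as transcription factors that steer lymphoid progenitors towards the T cell fate. In bone marrow, CD3 antigens are typical targets of the antibody mixtures that remove mature cells, so the receptor genes are not hallmarks of stem and progenitor cells.

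The RNA came from LSK cells sorted out of bone marrow. These cells lack mature lineage antigens and carry Sca-1 and c-Kit, and stem cells and early multipotent progenitors of the blood are found among them. Both groups were cells of a myelodysplastic syndrome (MDS) with the genotype Tet2KD/KD; Ezh2delta/delta on the C57BL/6 strain, so the Tet2 and Ezh2 alterations were shared by treated and control cells and no wild-type array was analysed here. The cells were taken from secondary recipients 10 weeks after transplantation. These had received decitabine (DAC), a cytosine analogue that traps DNA methyltransferases, or phosphate-buffered saline (PBS). The sample labels give 7 weeks for DAC and for PBS. They do not say whether this is the length of treatment or the time since it. Dose, the number of mice behind each array, their age, the nature of the Tet2KD allele, the driver of the Ezh2 deletion, the antibodies of the lineage mixture and any host cells left in the sort are not given by the sources used here.

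Probes called well above background made up 56.8% after DAC and 48.5% after PBS. Over probes with that call on each array, processed intensities had a 75th percentile of 813 and 618. A log2 difference here is DAC minus PBS after each array was divided by that percentile, so a probe at equal raw brightness on both arrays has a slightly negative difference. Kit and Ly6a, which encode the c-Kit and Sca-1 antigens of the sort, were bright on both arrays, with intensities of 5080 and 1295 after DAC and 3550 and 939 after PBS. Across all 18211 measured genes, 10.0% were past 2-fold on the higher side and 6.84% on the lower side, and the median difference was 0.02. Which side held more genes depended on the scaling: the higher side held 59.4% of the genes past 2-fold, against 49.2% with loess, 45.8% when arrays were centred on their medians, 41.9% in the series matrix, 42.2% with quantile normalization and 41.8% with the percentile taken over all probes.

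Probes that read the signalling motif itself are shown first, because 2 of the 13 probes lie in it. An ITAM was searched for in each probe as a tyrosine codon, a leucine or isoleucine codon 3 codons later, a spacer of 6 to 8 codons, and a second such pair, in a frame without a stop codon. Of the 55681 probe sequences, 37 held the pattern. The capitals mark the 15 codons of the motif in the probe for Cd3d (chr9:44794171-44794402, mm9, plus strand) and in the dimmer probe for Cd247 (chr1:167786567-167787585, mm9, plus strand), both with the letters of the deposited file.
Cd3d probe: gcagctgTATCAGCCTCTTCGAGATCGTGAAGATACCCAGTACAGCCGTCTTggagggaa
Cd247 probe: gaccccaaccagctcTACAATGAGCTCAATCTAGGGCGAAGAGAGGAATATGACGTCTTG
Each is 60 bases long but spans 232 and 1019 bases of the genome, so both cross an exon junction. The remaining 11 probes each span 60 bases. The sources used here do not give their place within the transcripts.

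**Figure D1:**
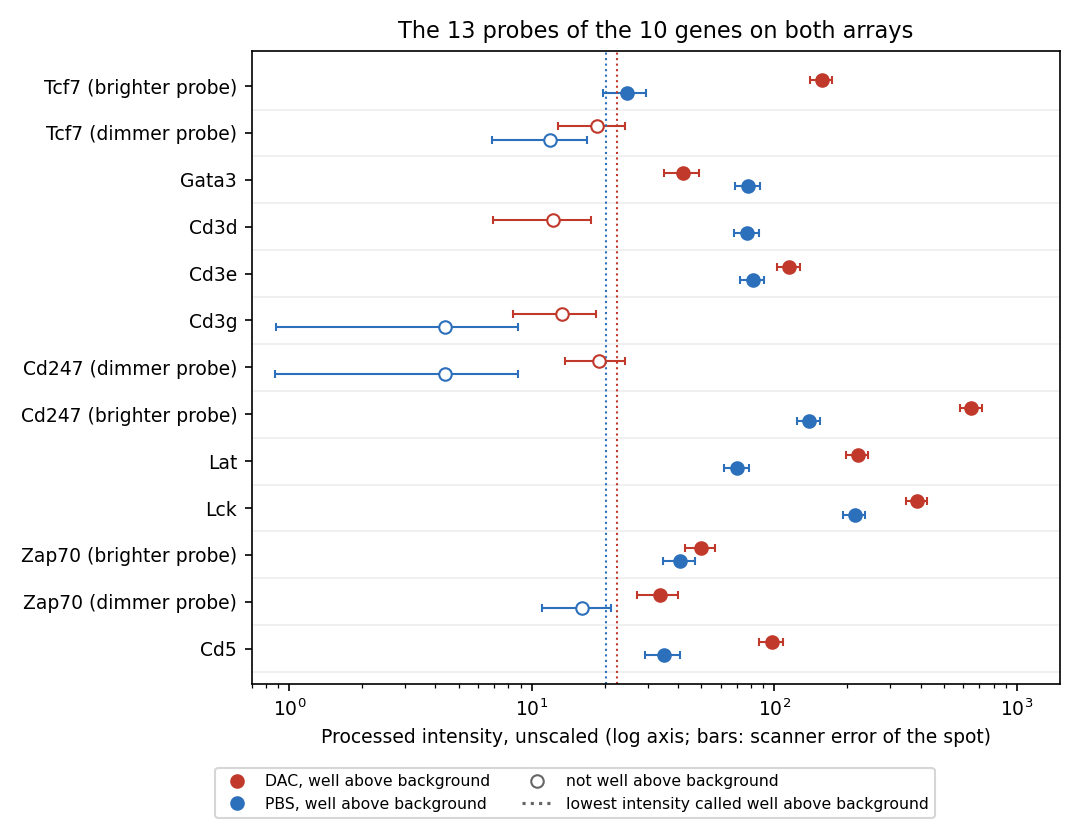
Processed intensity of each of the 13 probes on the DAC array (red) and the PBS array (blue) on a log axis before scaling, with bars for the scanner software's error of the spot (bars reaching 0 are cut short) and open symbols for spots not well above background. The spots for Tcf7 (156 and 24.6) and Cd247 (649 and 139) stand far apart, those for Cd3e (115 and 81.3) close together, and the order is turned for Gata3 (41.9 and 77.8) and Cd3d (12.2 and 77.1).

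Tcf7 had the highest difference of the 8 measured genes. Its brighter probe (NM_009331, chr11:52066114-52066173, mm9) had a processed intensity of 156 ± 16.3 after DAC and of 24.6 ± 4.93 after PBS, where ± is the error that the scanner software gave for the single spot. The PBS spot lay just above the lowest intensity called well above background on that array, 20.3, while the DAC spot was far from its limit of 22.5. After scaling the signal was 4.83-fold higher on the DAC array, a log2 difference of 2.27 with a scanner error of 0.33, and 198 of 18211 genes had a larger difference. The dimmer probe, 564 bases away on the same transcript, had intensities of 18.5 and 11.9, neither well above background, so it gave no second reading of the gene. The size of the difference moved with the treatment of background: it was 0.97 with normexp correction and 0.97 with no background subtraction, both just under 2-fold, and 1.90 to 2.11 under the other scalings.

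Gata3 went the other way. Its single probe (NM_008091, chr2:9779551-9779610, mm9) read 41.9 ± 6.85 after DAC and 77.8 ± 9.17 after PBS. Both spots were well above background, and the PBS spot was the brighter even before scaling, although the DAC array was the brighter one overall. The scaled signal was 2.44-fold lower after DAC, a log2 difference of −1.29 with a scanner error of 0.29, and 775 genes had a lower difference. It was −0.83 with normexp correction and −0.75 with no background subtraction, both within 2-fold, and −1.69 with quantile normalization. The 2 T-fate transcription factors among the 10 genes thus had differences of opposite sign, also under each of the 10 alternatives that measured them. The filters and the mean over probes among these could not change either value.

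The CD3 chains did not go together. Cd3e, which encodes the epsilon chain, read 115 ± 12.4 after DAC and 81.3 ± 9.23 after PBS (NM_007648, chr9:44806828-44806887, mm9). Its log2 difference was 0.10 with a scanner error of 0.23, which is no more than that error, and it was negative, down to −0.19, under 7 of 10 alternatives. The other 3, filters and the mean over probes, could not change its value. Cd3d, which encodes the delta chain, read 77.1 ± 8.92 on the PBS array through the ITAM probe printed above, and 12.2 ± 5.26 on the DAC array, where it was not well above background. Set against the lowest intensity called well above background on the DAC array, the Cd3d signal was 4.51-fold lower there. This bound leaves out the error of the spots and holds only for the background treatment used here. Over all genes or transcripts, 2.81% were above background after PBS alone, and 1.52% had such a bound of 2-fold or more. Without background subtraction the measured Cd3d difference was −1.19, and with normexp correction it was −1.19. Both were smaller in size than the bound, which is 2.17 in log2. Cd3g, which encodes the gamma chain, read 13.4 ± 5.04 and 4.39 ± 4.40 and was not well above background on either array (NM_009850, chr9:44777868-44777927, mm9), so no fold is given.

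Cd3g, Cd3d and Cd3e are neighbours on chromosome 9. In the RefSeq table of GRCm38.p6 the starts of Cd3g and Cd3d lie 1355 bases apart on opposite strands, and that of Cd3e 27825 bases beyond that of Cd3d. For these 3 neighbours the arrays gave 1 gene within 2-fold, 1 found on the PBS array only and 1 on neither, each from a single probe.

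Cd247, which encodes the zeta chain, had the brightest spot of the 13 probes on the DAC array. The probe for the accession NM_001113394 (chr1:167800324-167800383, mm9), which lists 3 RefSeq transcripts, read 649 ± 65.1 after DAC and 139 ± 14.7 after PBS. This was 3.55-fold higher after scaling, a log2 difference of 1.83 with a scanner error of 0.21, and 455 genes had a larger difference. Cd247 was the 1 gene of the 10 that stayed past 2-fold under all 11 alternatives, with differences from 1.44 to 1.83. The filters and the mean over probes among these could not change its value, and the highest of the others was 1.73, with loess. The ITAM probe printed above lists the single accession NM_031162 and lies 12738 bases away. It read 19.0 ± 5.23 and 4.38 ± 4.39, well above background on neither array. Its accession is not among the 3 transcripts listed for the first probe. The higher signal was thus seen at the first probe only, and could not be read for the transcript listed by the second.

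The kinases that act on the receptor lay within 2-fold. Lck read 387 ± 39.0 after DAC and 214 ± 21.9 after PBS (NM_010693, chr4:129225614-129225673, mm9). That is a log2 difference of 0.46 with a scanner error of 0.21, positive under each of 11 alternatives (0.25 to 0.46) but never past 2-fold. The filters and the mean over probes among these could not change its value. Zap70 read 49.96 ± 7.06 and 40.9 ± 6.03 on its brighter probe (NM_009539, chr1:36839542-36839601, mm9), a log2 difference of −0.11 with a scanner error of 0.29. Its other probe, 167 bases away, read 33.7 ± 6.46 on the DAC array and 16.1 ± 5.15, not well above background, on the PBS array. This gave a bound of 1.26-fold higher after DAC. As scaled here, the 2 Zap70 probes therefore gave no shared direction. Both were negative with normexp correction (−0.22 for the brighter and −0.17 for the other) and with no background subtraction (−0.22 and −0.06).

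Lat, the adaptor that ZAP-70 phosphorylates and that also serves mast cells and platelets, read 221 ± 22.7 after DAC and 70.1 ± 8.45 after PBS (NM_010689, chr7:133507719-133507778, mm9). It was 2.39-fold higher, a log2 difference of 1.26 with a scanner error of 0.23, and it was 0.70 with normexp correction and 0.69 with no background subtraction. Cd5, the inhibitory receptor, read 97.7 ± 11.0 and 35.1 ± 5.76 (NM_007650, chr19:10792701-10792760, mm9). Its difference of 1.08, 2.11-fold higher with a scanner error of 0.29, was just past 2-fold. It was within 2-fold under 7 of 10 alternatives, to 0.33 at the lowest. The other 3 were filters and the mean over probes, which could not change its value. Cd5 was thus within 2-fold under every alternative that could change it.

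**Figure D2:**
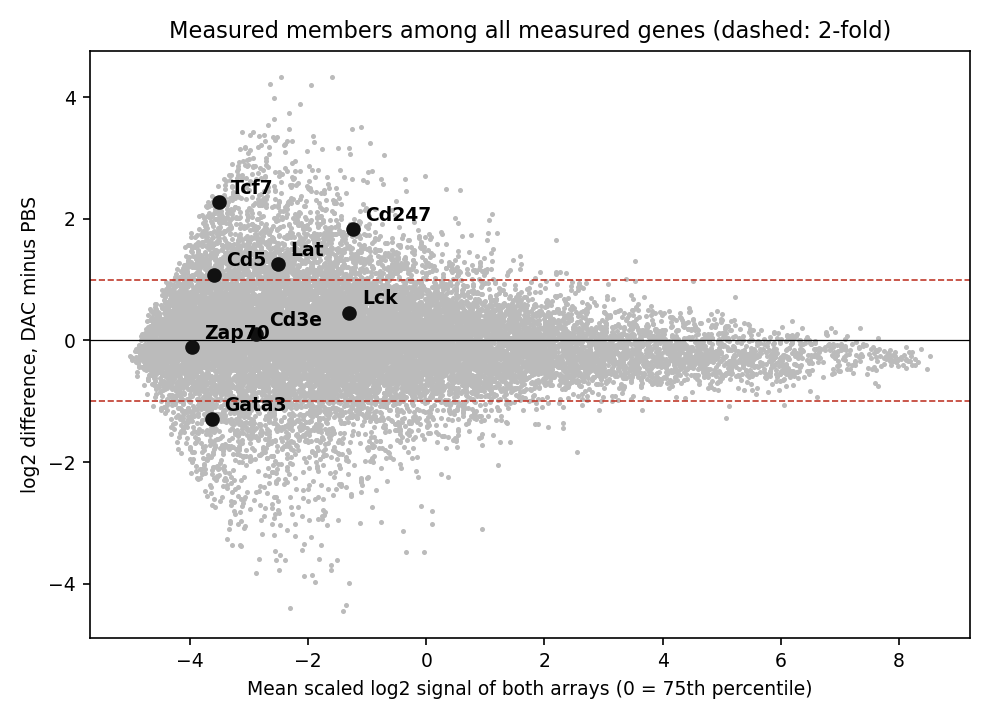
Log2 difference (DAC minus PBS) against the mean scaled log2 signal of both arrays for 18211 measured genes (grey) and the 8 measured genes of the group (black, named), with dashed lines at 2-fold. The 8 genes sit in the lower part of the signal range, where the grey points spread widest, with Tcf7 at 2.27 and Gata3 at −1.29 as the ends.

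Counted together, 4 of the 8 measured genes were past 2-fold on the higher side and 1 on the lower side, against 10.0% and 6.84% of all measured genes. At any size 6 of the 8 differences were positive, against 51.4% of all. Cd3e (0.10), among the 6, was negative under 7 of 10 alternatives. As scaled here, the median difference of the 8 was 0.77, against 0.02 over all measured genes. It was not taken under the alternatives, where the background treatments brought Tcf7, Lat, Cd5 and Gata3 within 2-fold. Dim genes pass 2-fold more often: among the 8405 genes whose mean signal lay within the range of these 8, 16.9% were higher and 9.95% lower. When all measured genes were split by signal into 3 parts of equal size, 5 of the 8 lay in the dimmest, 3 in the middle and 0 in the brightest. The log2 difference of repeated spots had an SD of 0.26 in the dimmest and 0.13 in the middle one. That SD covers printing, hybridisation and scanning, and neither mice, sorting nor amplification.

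The treatment of background moved these counts more than the scaling did. With normexp correction, and likewise with no background subtraction, 1 gene (Cd247) was higher and 0 were lower, against 3.96% and 4.13% of all genes with the former and 3.94% and 4.04% with the latter. With the 4 other scalings and the series matrix values the higher genes were Tcf7, Cd247 and Lat, and the lower one was Gata3. There the shares of all genes higher and lower were 7.88% and 9.31% when arrays were centred on their medians, 8.17% and 8.45% with loess, and 7.36% and 10.1% with quantile normalization. They were 7.30% and 10.2% with the percentile over all probes and 7.30% and 10.1% with the series matrix. The positive and significant call in place of well above background gave 4 higher and 2 lower (Gata3, Cd3d), against 14.4% and 8.64% of all genes. No filter gave 5 higher, with Cd3g, and the same 2 lower, against 15.4% and 8.73%. The mean over measured probes gave 4 higher and 1 lower, against 9.71% and 6.00%. Beside background, the range of the signal also mattered: 2 of the 8 genes, Cd247 and Lck, were no dimmer than the median measured gene, and of these Cd247 was higher and 0 were lower, against 5.26% and 4.58% of such genes.

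**Figure D3:**
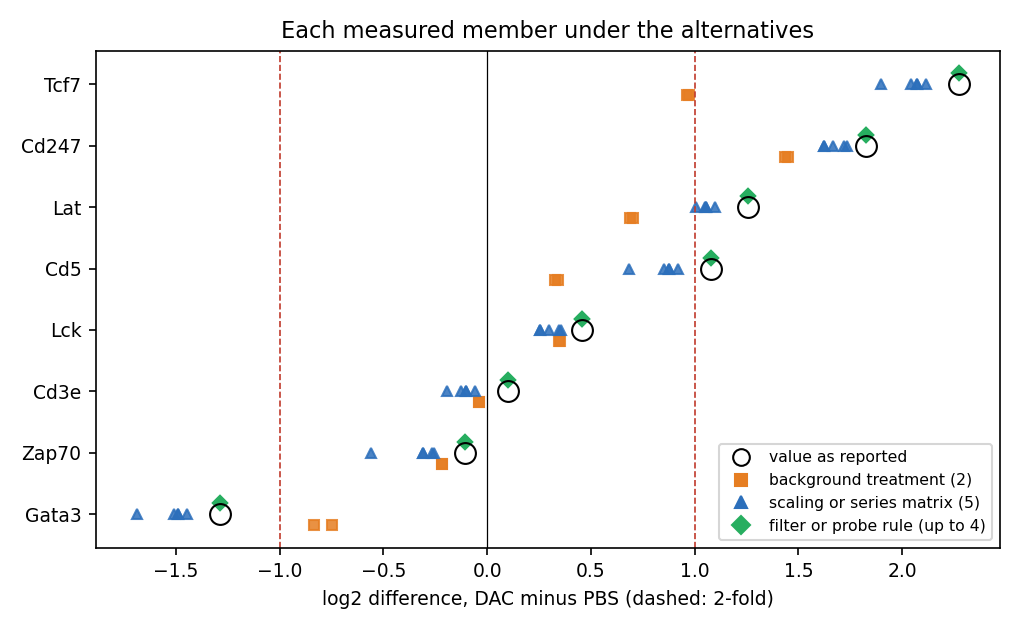
Log2 difference (DAC minus PBS) of the 8 measured genes as reported (open circles) and under 2 treatments of background (squares), 5 scalings or deposited values (triangles) and up to 4 filters or probe rules (diamonds), with dashed lines at 2-fold. Cd247 stays past 2-fold throughout, the squares for Tcf7, Lat, Cd5 and Gata3 fall inside the dashed lines, and Cd3e has values on both sides of 0.

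Defining markers of T cells were read beside these genes. Of 13 such markers 10 were on the array under these names, and 6 were not well above background on either array: Cd3g, the adhesion receptor gene Cd2, the coreceptor genes Cd8a and Cd8b1, the T cell commitment factor gene Bcl11b and Themis. Cd3e, the coreceptor gene Cd4 (0.47) and the costimulatory receptor gene Cd28 (−0.26) were measured, all within 2-fold, and Cd3d was on the PBS array only. The summed scaled signal of the 10 markers, in units of the 75th percentile, was 1.23 after DAC and 1.15 after PBS, while that of the 10 genes of the group was 2.14 and 1.24. Without Cd247 the latter sums were 1.34 and 1.01, and without Cd4 the marker sums were 0.453 and 0.585. Both lists hold Cd3d, Cd3e and Cd3g. In sorted cells read in bulk, more cells of a type and more RNA per cell cannot be told apart. Probes for T cell receptor chains under the array's own names numbered 7, a set added after the constant region names were found not to match. Of these Tcra was within 2-fold (0.02), Trgv1, a gamma chain variable segment, was higher (1.37, or 0.56 at the lowest alternative), and 5 were well above background on neither array.

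Other genes of the pathway were described from lists. Of 66 further pathway genes on the array 51 were measured. Past 2-fold, 11 of the 51 (21.6%) were higher and 1 (1.96%) was lower, against 10.0% and 6.84% of all measured genes. The other 39 lay between, and the median was 0.28. A further 5 were above background after DAC alone, against 9.43% of all genes or transcripts, or 3.54% with a bound of 2-fold or more. Dim genes pass 2-fold more often, and no share among genes of like signal was computed for this list or those below. With genes below the median signal left out, 4 of the 11 higher genes remained. Among receptors, coreceptors and costimulatory molecules, 0 of 7 measured genes passed 2-fold in either direction. Icos, a costimulatory receptor gene, and Ptcra, which encodes the pre-T cell receptor alpha chain, were above background after DAC alone, with bounds of 3.07-fold and 1.41-fold.

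Among 24 measured kinase and adaptor genes 6 were higher by 2-fold or more and 1 was lower (10.0% and 6.84% over all genes), and the median was 0.30. The higher ones were Prkcq (2.30), which encodes protein kinase C theta, Nck1 (1.67), the ubiquitin ligase gene Cbl (1.43), Fyb (1.35), the Src family kinase gene Fyn (1.30) and the adaptor gene Grb2 (1.18). At their lowest alternative Cbl (1.23) and Nck1 (1.08) were still past 2-fold, while Grb2 (0.98), Fyb (0.71), Prkcq (0.66) and Fyn (0.39) were not. Only 1 of the 2 measured probes for Prkcq had the sign of its difference. Both measured probes did for Fyb and for Grb2. The adaptor gene Sh2d2a was lower (−2.05), with its other measured probe of opposite sign, and it was at −0.83 in the alternative nearest to 0. Cblb, a ubiquitin ligase gene that acts as a brake on the same pathway, was above background after DAC alone. Its bound of 5.35-fold equals its measured fold.

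The calcium, NFAT, NF-kB and AP-1 arm held 20 measured genes, of which 5 were higher by 2-fold or more and 0 lower (10.0% and 6.84% over all genes), and the median was 0.22. The higher ones were Map2k1 (2.01), the calcineurin subunit gene Ppp3cb (1.59), the orphan receptor gene Nr4a1 (1.23), the calcium channel gene Itpr1 (1.20) and Egr1 (1.02). Ppp3cb (1.08) and Nr4a1 (1.03) were past 2-fold at their lowest alternative, and Map2k1 (0.87), Egr1 (0.81) and Itpr1 (0.53) were not. Egr2 was above background after PBS alone, with a bound of 2.44-fold lower after DAC. With normexp correction, and likewise with no background subtraction, 7 of the 51 pathway genes were higher, against 3.96% and 3.94% of all genes. Fyn, Fyb, Itpr1 and Map2k1 were the genes within 2-fold there.

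Transcription factors of T cell specification other than Tcf7 and Gata3 numbered 16 measured genes. Past 2-fold, 6 were higher and 1 was lower, against 10.0% and 6.84% of all measured genes, 9 lay between, and the median was 0.61. The higher ones were Zbtb16 (1.68), Ikzf1 (1.65), Runx3 (1.37), the Notch target Hes1 (1.20), Tcf12 (1.08) and Lef1 (1.04), the close relative of Tcf7. Of the measured probes, 2 of 3 for Ikzf1, 1 of 2 for Tcf12 and both for Runx3 had this sign. At their lowest alternative Lef1 was at 0.35, Tcf12 at 0.36, Ikzf1 at 0.39 and Hes1 at 0.48, while Zbtb16 was at 1.23 and Runx3 at 1.03. Tbx21, which encodes T-bet, was lower (−1.53, between −1.75 and −1.11 over the alternatives). Bcl11b and Eomes were well above background on neither array.

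Cells other than T cells use several of the 10 genes, so their markers were read too. Of 18 NK cell and innate lymphoid markers 6 were measured, 2 of them higher (Il7r 1.37, Fcer1g 1.01) and 2 lower (Gzmb −1.47, Fcgr3 −1.38), and 6 were above background after DAC alone. Over all genes these shares were 10.0%, 6.84% and 9.43%. Il7r was at 0.86 and Fcer1g at 0.81 at their lowest alternative. Of the 6 above background after DAC alone, Il2rb had a bound of 7.02-fold and Rora one of 3.37-fold. Ncr1 was read after PBS alone, with a bound of 1.74-fold lower after DAC. The summed scaled signal of this list was 10.69 after DAC and 9.91 after PBS. Its brightest gene, Nkg7 (intensities 5973 and 4667, difference −0.04), made up most of both sums, and no sum was taken without it. Among megakaryocyte and mast cell genes, which belong to lineages that also use Lat, 3 of 6 measured were higher (Tpsb2 1.36, Itga2b 1.16, Pf4 1.04) and 2 lower (Cma1 −1.38, Cpa3 −1.04), against the same 10.0% and 6.84%, with sums of 3.53 and 3.43. Each of these 5 was within 2-fold under at least 1 alternative, Itga2b at 0.26 and the others between 0.84 and 0.96 in size. Fcer1a, which encodes a chain of the high-affinity IgE receptor of mast cells, was read after PBS alone, with a bound of 2.85-fold lower after DAC. Of 8 measured B cell genes 0 were past 2-fold, with sums of 19.4 and 17.1. The part of these cells in the differences of the 10 genes was not tested.

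**Figure D4:**
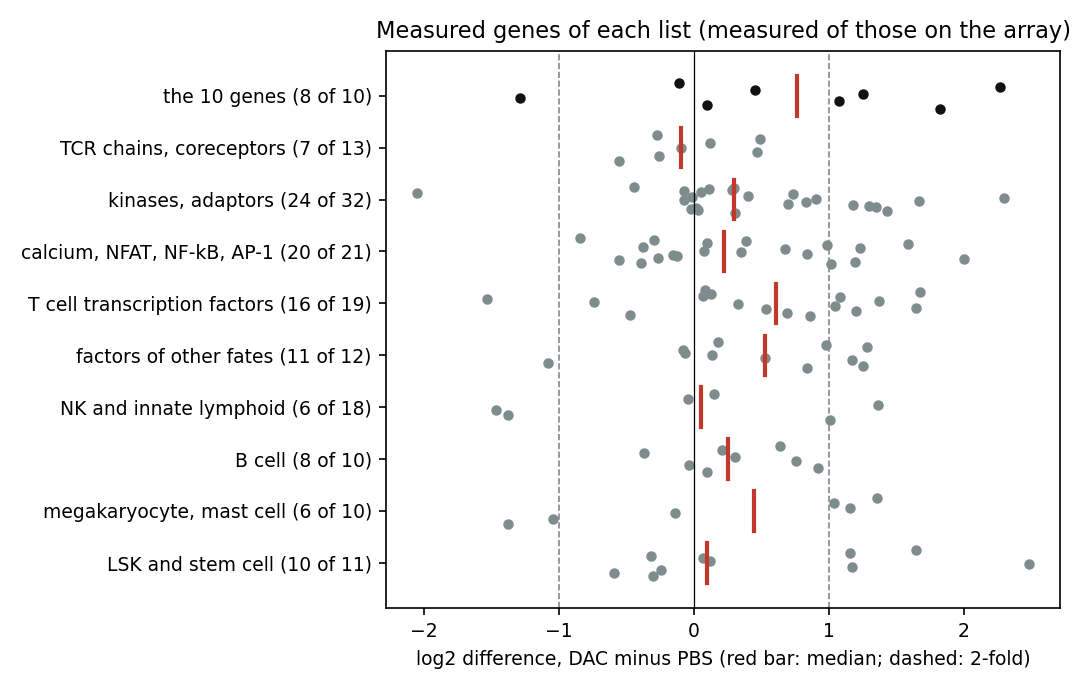
Log2 differences (DAC minus PBS) of the measured genes of each list (points), with the list's median as a red bar, dashed lines at 2-fold, and the number measured of those on the array beside each name. As scaled here, the 8 measured of the 10 genes (black) have a median of 0.77 and the T cell transcription factors one of 0.61. The receptor and coreceptor list has one of −0.10, with every point within 2-fold.

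Because decitabine acts on DNA methylation, whose usual site in mammals is the cytosine of a CG pair, CG pairs were counted in RefSeq windows from 250 bases before to 50 after each gene's start (GRCm38.p6). Methylation was not measured in this study. All 10 genes had at least 1 window, 14 in all, against 32851 windows of 300 bases for all genes, whose median was 7 CG pairs. Gata3 had 22, more than 76.9% of all windows, and Cd3d had 1, more than 5.43%. Between them lay Cd247 and Cd5 with 3 each, Cd3g with 4, Cd3e with 8 and Lat with 10. Lck had 7 and 5 in its 2 windows, and Zap70 had 8, 5 and 9 in its 3. Tcf7 had 45 and 17, the latter more than 68.6% of all windows. Its window with 45 holds an ATG with an open frame of 71 codons to the window's end, so it may hold coding sequence, and its count is not ranked among promoters here. The windows of Cd5 and Cd247 also hold such a frame, of 68 and 48 codons, so the same limit applies to their counts. How many windows of all genes hold such a frame was not counted, so the frames alone do not show coding sequence.

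The 250 bases before the start are printed for Gata3 (chr2:9878601-9878850, GRCm38.p6, minus strand), Cd247 (chr1:165788431-165788680, plus strand) and Cd3d (chr9:44981536-44981785, plus strand). Gata3 is a CG-rich window of a lower gene and Cd247 a CG-poor window of a higher gene. Cd3d, read after PBS alone, has 0 CG pairs before the start. These are examples, and no link between CG count and direction was tested. Tcf7, with the highest difference, had 17 CG pairs in its window without an open frame. Capitals mark the CG pairs, 19 in Gata3 and 3 in Cd247.
Gata3 promoter: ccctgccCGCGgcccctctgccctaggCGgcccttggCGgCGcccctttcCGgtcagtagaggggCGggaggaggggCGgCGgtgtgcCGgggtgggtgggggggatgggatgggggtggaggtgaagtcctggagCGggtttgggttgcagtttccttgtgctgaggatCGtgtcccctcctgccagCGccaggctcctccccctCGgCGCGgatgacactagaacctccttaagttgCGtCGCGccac
Cd247 promoter: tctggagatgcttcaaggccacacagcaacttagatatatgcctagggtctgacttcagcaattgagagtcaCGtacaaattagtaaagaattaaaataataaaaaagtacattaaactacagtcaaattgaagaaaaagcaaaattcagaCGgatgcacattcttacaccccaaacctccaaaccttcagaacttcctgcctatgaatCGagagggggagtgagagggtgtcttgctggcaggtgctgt
Cd3d promoter: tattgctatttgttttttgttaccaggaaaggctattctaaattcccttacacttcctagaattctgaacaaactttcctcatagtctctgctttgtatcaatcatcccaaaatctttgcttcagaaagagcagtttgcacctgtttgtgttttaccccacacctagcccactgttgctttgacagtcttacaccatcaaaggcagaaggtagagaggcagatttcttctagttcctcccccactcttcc
The windows were also searched on both strands for AGATAA, a sequence bound by GATA factors, CTTTGA, one bound by TCF and LEF factors, and CANNTG, the E-box bound by E proteins. Matches of different sequences could overlap. AGATAA was found in the window of Cd3g alone, in 1 of 14 windows against 11.2% of all windows. CTTTGA was found in Cd247, Cd3d and 1 window of Zap70, in 3 of 14 against 16.0%. CANNTG was found in all 14, against 72.3%. These are matches of letters, and binding was not measured.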

How the data were processed

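Gene expression was measured in sorted LSK cells on 1 Agilent 1-colour array per group, both on 1 slide. Per the file headers, the authors' files came from Agilent Feature Extraction 10.7.3.1 (protocol GE1_107_Sep09, positions on mm9). The deposited processed intensity is background-subtracted and detrended, with a surrogate for dim spots. The error of a spot and the other calls (0 or 1 per spot) are the scanner software's, per the file headers. The deposited series matrix holds log2 values with a median of 0 in each column. Against the differences of the scanner values, those of its columns had slope 1.00 and offset −0.60, and what was subtracted from each probe stays unknown.

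The call of well above background decides what was measured. From these files, log2 intensities were averaged over the spots of a probe (55680 of 55681 probes kept) and scaled by each array's 75th percentile over the 25404 probes (45.6%) that had this call on each array. The brightest probe stood for a gene. A probe above background on 1 array only was given a bound on the other array, the higher of its own signal and the dimmest signal with that call. Where its own signal was the higher, the bound equals the measured fold. A bound is not a minimum, since it leaves out spot error and can shrink under other background treatments. Gene names came from accessions and symbols in a GRCm38.p6 gene table, used for names only. Differences were counted at 2-fold, since 1 array per group allows no test. Precision is limited by the number of arrays. Named genes were all 10 genes with every probe, the genes of the other lists past 2-fold or with a bound of at least 2-fold (at most 6 per list and direction), and T cell and LSK markers fixed by name. With 2 arrays no genes of like pattern were ranked. The genes, lists and rules were chosen with earlier results of these data known. Alternatives were 2 background treatments, 4 scalings, the series matrix, 3 filters and the mean over probes, with limma 3.58.1 in R 4.3.3 for normexp (offset 50), quantile and loess normalization. Some genes of the lists are not reported here. The calculations ran in Python 3.11.15 and were tested on simulated data. Ncr1, Nkg7, Eomes, Spi1, Tcra and Trgv1 were named outside the rule after their values were seen.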

Additional observations from a re-analysis of the deposited data

How the results depend on the processing

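Of 82 values for the 8 measured genes under 11 alternatives, 56 moved by less than the SD of repeated spots, 26 moved by more and 0 of those past 2-fold changed sign. The 56 include every value from the 3 filters and from the mean over probes. Those settings could not move a gene's value, since each of the 8 genes had 1 measured probe. The count of the 10 genes at least 2-fold higher, 4, became 1 with normexp correction, with no background subtraction and with genes below the median signal left out. The count lower, 1, became 0 under the same 3 settings, and 2 with the positive and significant filter and with no filter, which add Cd3d. Of the other pathway genes, 11 higher became 7 with normexp correction and with no background subtraction, and 4 with genes below the median signal left out. The 1 lower became 2 with median centring, quantile normalization, loess, scaling over all probes, the series matrix values and no filter, and 0 with genes below the median signal left out and with the mean over measured probes. Over all genes, 1824 higher and 1245 lower became 721 and 752 with normexp correction, 717 and 735 with no background subtraction, 3667 and 2196 with the positive and significant filter, 5364 and 3038 with no filter, and 479 and 417 with genes below the median signal left out. The number of genes entering the count, 18211, rises to 25417 with the positive and significant filter and to 34786 with no filter. It falls to 9106 under the last setting. With the 2 background treatments it stays at 18211. With no background subtraction the brighter Tcf7 probe entered with 233 after DAC and 93.0 after PBS, against processed intensities of 156 and 24.6. Normexp correction used an offset of 50. A like amount of signal left in or added on both arrays brings the ratio of a dim probe nearer to 1. The lower counts are therefore no separate reading of the genes, and how much of the drop came from this was not tested. Median centring moved the median of all genes by −0.16, quantile normalization by −0.11, and the percentile over all probes and the series matrix by −0.20 each. No paired analysis was possible because each group has 1 array, and leaving out an array leaves no comparison. Dim spots limit Tcf7, Gata3, Cd3d, Cd3g, Cd5, Zap70 and the dimmer probe for Cd247. These lie near or below the lowest intensity called well above background on at least 1 array.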

Other observations

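Factors of other fates, which are turned down when progenitors become T cells, were read as a list of 12. Of 11 measured, 3 were higher by 2-fold or more, 1 was lower and 7 lay between, against 10.0% and 6.84% of all measured genes higher and lower, with a median of 0.53, while the median of the T cell transcription factors was 0.61. The higher ones were the B cell factor gene Pax5 (1.28), the myeloid factor gene Cebpa (1.26) and Gata2 (1.17), a factor of stem cells and mast cells. Spi1, which encodes PU.1, was just within 2-fold (0.98), and Ebf1, a B cell factor gene, was lower (−1.08). Pax5 was higher on each of its 2 measured probes. Gata2 (0.97) and Ebf1 (−0.81) were within 2-fold in the alternative nearest to 0.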
